A study of Mus musculus with 9 samples.

Results

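The genes described here are 10 cell cycle genes, read in R848-stimulated plasmacytoid dendritic cells (pDCs) of mouse spleen. They were chosen by name for their role, out of 52550 genes listed in the values analysed, and all 10 had reads. *Mki67*, *Top2a*, *Ccnb1* and *Cdk1* act in G2 and mitosis, *Ccna2* in S phase and G2, *Mcm2* and *Pcna* in DNA replication, *Ccnd2* and *Ccnd3* in G1, and *Cdkn1a* encodes an inhibitor that halts the cycle. The study sorted splenic CD11c-intermediate SiglecH+ PDCA1+ cells from C57BL/6 mice that were WT (G/G), heterozygous (G/A, labelled AG) or homozygous (A/A) for a knockin (KI) allele of *Ncf1*, the gene of a NADPH oxidase subunit, with 3 samples per genotype. The KI allele was made by CRISPR/Cas9 in zygotes and replaces an arginine with a histidine, so every cell of an A/A mouse carries it. Cells of all groups were kept for 12 hours with the TLR7/-8 ligand R848, at 10 μg/mL per the methods, and no unstimulated library is part of the design. Values of A/A replicate 1 alone were analysed, and the remaining 8 libraries were not used here. Therefore, no level has a replicate error, no genotypes were compared and no level can be set against resting pDCs. The sources used here do not say whether a sample was 1 mouse or a pool.

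The library held 31408298 reads over 17664 genes with reads. Levels are given as CPM (reads per 1000000 reads of the library) with Wilson 95% confidence intervals. Levels of genes were compared per length, as TPM (reads per kilobase of merged exons, scaled to sum to 1000000), while CPM and its sums give shares of reads, which also grow with gene length. The intervals cover the counting error of reads only, and no spread between samples. Copies made by PCR cannot be told from separate molecules in these data, so the intervals may understate even this error. The 12201 protein-coding genes with reads had a median of 9.96 TPM, which serves as the yardstick below. By construction, 50% of them lie above it, and so do 27.96% of all listed protein-coding genes. Counts of genes above this median are to be read against these shares. The methods state that female mice aged 10 to 12 weeks were used, but Y-linked *Ddx3y* had 102 CPM in this library and *Xist* was listed at 0. This mismatch holds for every value below, and its cause was not tested.

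The cell cycle is driven by cyclins that switch on cyclin-dependent kinases (CDKs). In G1, D-type cyclins with CDK4 or CDK6 phosphorylate the RB family and release E2F factors, which turn on the replication genes of S phase. Cyclins A and B with CDK1 then drive G2 and mitosis. The inhibitor p21, encoded by *Cdkn1a*, blocks CDKs and binds PCNA, and it is a classic target of p53. Mature pDCs are known as largely non-dividing cells that descend from cycling progenitors in the bone marrow.

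In resting cells, many G2/M genes are held silent by the DREAM complex through a cell cycle gene homology region (CHR) in the promoter, often beside CCAAT boxes. The promoters of 4 G2/M members are shown because they carry both elements. Each is the 150 bases just before the RefSeq start on the minus strand of GRCm38.p6, at chr13:100786487-100786636 for *Ccnb1*, chr10:69352913-69353062 for *Cdk1*, chr11:99024190-99024339 for *Top2a* and chr7:135716380-135716529 for *Mki67*. Capitals mark TTTGAA or TTTAAA (the CHR) and CCAAT, searched on both strands.
Ccnb1: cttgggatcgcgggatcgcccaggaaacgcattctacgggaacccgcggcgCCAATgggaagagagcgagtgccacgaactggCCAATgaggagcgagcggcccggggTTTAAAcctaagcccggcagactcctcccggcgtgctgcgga
Cdk1: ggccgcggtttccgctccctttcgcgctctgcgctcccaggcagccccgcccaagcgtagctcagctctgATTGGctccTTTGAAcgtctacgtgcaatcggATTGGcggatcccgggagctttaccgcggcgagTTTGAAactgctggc
Top2a: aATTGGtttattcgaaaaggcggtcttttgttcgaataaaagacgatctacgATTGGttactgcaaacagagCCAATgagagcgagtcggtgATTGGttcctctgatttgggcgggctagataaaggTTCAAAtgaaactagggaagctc
Mki67: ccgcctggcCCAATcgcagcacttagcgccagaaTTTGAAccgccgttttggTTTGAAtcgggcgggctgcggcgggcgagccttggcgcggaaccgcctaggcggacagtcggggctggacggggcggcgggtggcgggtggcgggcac

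RefSeq windows from 250 bases before to 50 bases after a start were matched for 8 of the 10 members, in 10 windows. No window was matched for *Ccna2* or *Ccnd2*, so these were not searched. Of the 8, 5 held both a CHR and a CCAAT box, namely *Ccnb1*, *Cdk1*, *Top2a*, *Mki67* and *Mcm2*. Among all 32851 promoter windows, 27.6% held a CHR word, 37.4% held CCAAT and 10.7% held both. The CHR of *Ccnb1* began 42 bases before the start and its CCAAT boxes 67 and 99 bases before it. *Pcna* had a CCAAT box and no CHR word. The E2F words TTTCCCGC, TTTCGCGC, TTTGCCGC and TTTGGCGC were found in 1 member, *Cdk1*, and in 2.26% of all windows. These matches are letters in a window and do not show binding.

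The window at the upstream start of *Cdkn1a* is shown because it holds the p53 response element, here in capitals. It is the 150 bases before that start on the plus strand, chr17:29090829-29090978 of GRCm38.p6.
Cdkn1a: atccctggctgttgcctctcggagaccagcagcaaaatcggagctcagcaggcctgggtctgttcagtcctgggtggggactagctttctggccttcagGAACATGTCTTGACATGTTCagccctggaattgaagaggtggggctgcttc

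The element spans 29090928 to 29090947. It ends 32 bases before the upstream start and 2822 bases before the downstream start of *Cdkn1a*. With 2 abutting half-sites and at most 1 mismatch in 20 bases, 29 of 32851 windows (0.0883%) held such an element, and *Cdkn1a* was the only member among them. Neither *Cdkn1a* window held a CHR word or CCAAT.

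*Cdkn1a* and *Ccnd2* stood far above the other members per length in A/A replicate 1. As a share of reads, they held 90.5% of the members' 2870 CPM, and the other 8 members summed to 274 CPM. The levels per length ran from 1.42 TPM for *Mki67* to 963 TPM for *Cdkn1a*, a 680-fold span, with a median of 15.2 TPM. In descending order they were *Cdkn1a*, *Ccnd2*, *Pcna*, *Ccnd3*, *Ccna2*, *Ccnb1*, *Mcm2*, *Top2a*, *Cdk1* and *Mki67*. Of the 9 neighbouring pairs in this order, 8 differed beyond the counting error. *Ccnb1* and *Mcm2* did not, with a ratio of 1.01 (95% CI, 0.912 to 1.12). By coding length, *Ccnd3* moved above *Pcna* and *Cdk1* above *Top2a*, and by the longest transcript *Mcm2* moved above *Ccnb1*. In all, 7 of the 10 members lay above the protein-coding median and 3, all G2/M genes, lay below it. Of protein-coding genes with reads, 50% lie above that median by construction. Of all listed protein-coding genes, those without reads included, 27.96% lay above it.

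**Figure D1:**
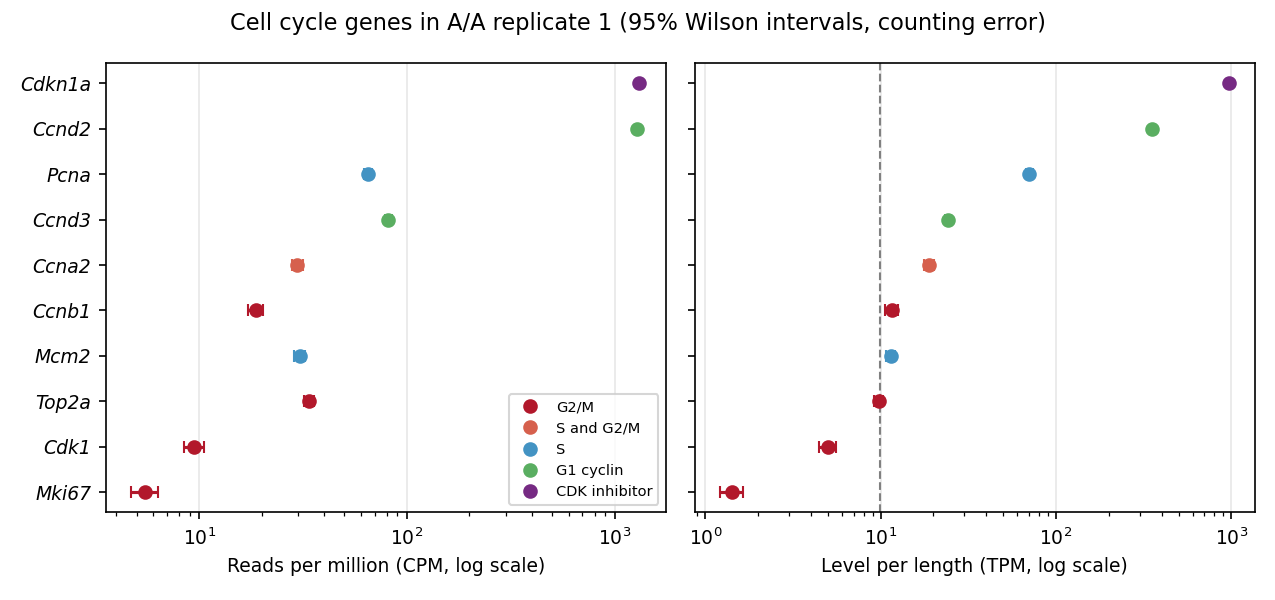
Levels of the 10 members in A/A replicate 1 as CPM (left) and TPM (right), both on log axes. Points are colored by role, bars are Wilson 95% intervals and the dashed line is the median of protein-coding genes with reads (9.96 TPM). *Cdkn1a* and *Ccnd2* sit at 963 and 354 TPM, and *Mki67* is the lowest at 1.42 TPM.

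**Figure D2:**
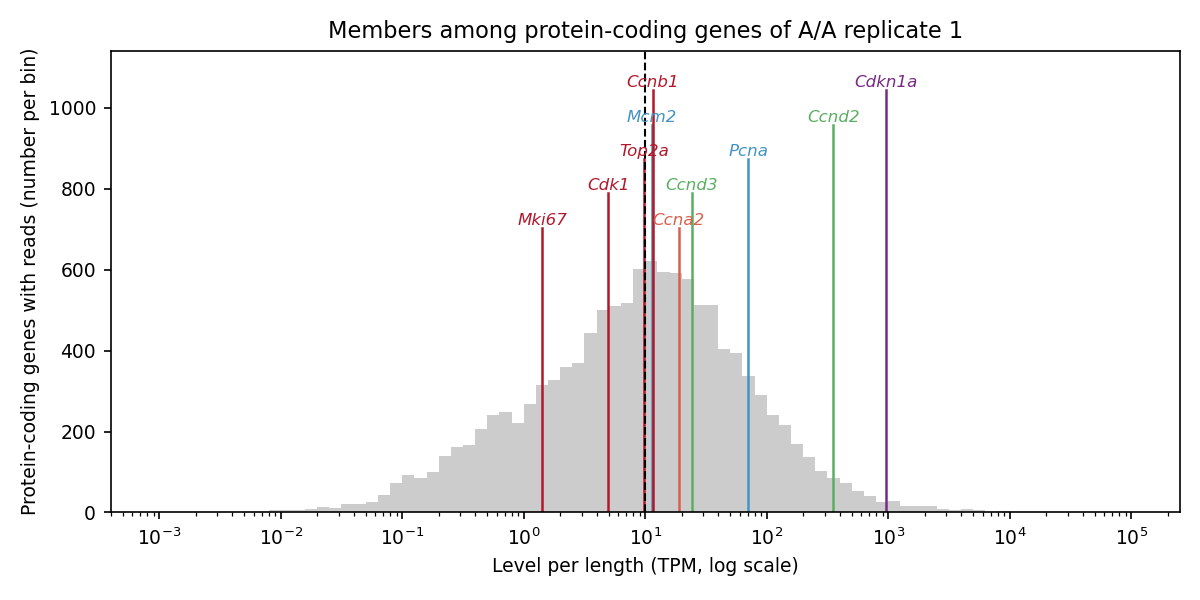
Members (colored lines) on the distribution of TPM (log axis) over the 12201 protein-coding genes with reads, with the median as a dashed line. *Cdk1* and *Mki67* lie left of it, *Top2a* lies just below it at 9.75 TPM and *Cdkn1a* lies in the right tail.

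The proliferation antigen Ki-67 gave the weakest signal of the members. *Mki67* (ENSMUSG00000031004.8, chromosome 7, 135689784 to 135716361) was read at 5.48 CPM (172 reads, 95% CI of the CPM 4.72 to 6.36). Per length this was 1.42 TPM (95% CI, 1.22 to 1.64), at percentile 19.0 of protein-coding genes with reads. *Top2a* (chromosome 11, 98992943 to 99024189), the topoisomerase that untangles replicated chromosomes, was read at 33.8 CPM (1061 reads, 95% CI of the CPM 31.8 to 35.9), which per length was 9.75 TPM. Both genes are routine markers of dividing cells, but per length *Top2a* was 6.89-fold higher than *Mki67* (95% CI, 5.86 to 8.14), and 12.8-fold by coding length.

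The mitotic kinase and its cyclins were detected at low to middling levels. *Cdk1* (chromosome 10, 69335146 to 69352938), the kinase that starts mitosis, was read at 9.46 CPM (297 reads, 95% CI of the CPM 8.44 to 10.6), which per length was 4.99 TPM. *Ccnb1* (chromosome 13, 100778650 to 100786570), its mitotic partner cyclin B1, was read at 18.7 CPM (587 reads, 95% CI of the CPM 17.2 to 20.3), which per length was 11.5 TPM. *Ccna2* (chromosome 3, 36564865 to 36572150), cyclin A2, was read at 29.7 CPM (934 reads, 95% CI of the CPM 27.9 to 31.7), which per length was 18.9 TPM. Both cyclins were thus higher per length than the kinase they activate, and *Ccna2* was 1.64-fold higher than *Ccnb1* (95% CI, 1.48 to 1.83). Exons of *Exosc9* on the opposite strand, a gene with 1102 reads, covered 12.5% of the exon bases of *Ccna2*, and the use of strand in counting is not given in the sources used here. For *Ccnb1*, 8.20% of the 150-base transcript windows occurred identically in a transcript of another gene, most of them in *Ccnb1-ps*, which had 4 reads.

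Among 20 mitotic cyclins, kinases and their regulators, all had reads and 10 exceeded the protein-coding median. *Ccnb2*, the second B-type cyclin, was the highest with 34.0 TPM, 2.95-fold above *Ccnb1* (95% CI, 2.63 to 3.31), though 1.16-fold by coding length. It was followed by *Aurkb*, a kinase of chromosome segregation, at 23.7 TPM and *Wee1*, which restrains CDK1, at 22.9 TPM. *Cdc25c*, the phosphatase that releases CDK1, had 0.758 TPM, *Foxm1*, the transcription factor of the G2/M program, had 0.763 TPM and *Cdc25b*, a related phosphatase, had 1.40 TPM. *Ccna2* ranked 4, *Ccnb1* 10 and *Cdk1* 15 of the 20.

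A broader list of 54 G2/M genes, of the kind used to score single cells, had a median of 10.6 TPM, with 28 genes above and 26 below the protein-coding median. Expression was uneven within it. *Jpt1* (270 TPM), *Tubb4b* (183 TPM), *Hmgb2* (170 TPM) and *Tpx2* (111 TPM) held 51.7% of the summed TPM of the list. The first 3 of these encode a microtubule-associated protein, a tubulin and a chromatin protein with uses beyond mitosis, and *Tpx2* encodes a spindle assembly factor. Identical 150-base windows in other genes made up 13.8% for *Hmgb2* and 11.9% for *Tubb4b*. *Mki67* ranked 52 of the 54, above *Cenpf* (0.939 TPM) and *Cdc25c* only.

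Both replication members were higher than *Cdk1* per length, though by coding length *Mcm2* (10.6 TPM) and *Cdk1* (10.01 TPM) were close. *Pcna* (chromosome 2, 132249162 to 132253314), the sliding clamp of DNA polymerases, was read at 65.0 CPM (2041 reads, 95% CI of the CPM 62.2 to 67.9), which per length was 70.4 TPM, at percentile 85.9 of protein-coding genes with reads. *Mcm2* (chromosome 6, 88883474 to 88898780), a subunit of the replicative helicase, was read at 30.4 CPM (956 reads, 95% CI of the CPM 28.6 to 32.4), which per length was 11.4 TPM. Per length *Pcna* was 6.19-fold higher than *Mcm2* (95% CI, 5.73 to 6.69). The pseudogene *Pcna-ps2*, with 70 reads, shared 4.35% of the 150-base windows of *Pcna*.

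The 6 subunits of the MCM2-7 ring, which act in equal numbers, spanned 11.4 TPM for *Mcm2* to 38.3 TPM for *Mcm6*, a 3.37-fold range that narrowed to 1.81-fold between these genes by the longest transcript. The helicase loaders *Cdt1* (8.33 TPM), *Cdc6* (3.06 TPM) and *Orc1* (1.19 TPM) lay below the ring genes, but *Orc4* (26.1 TPM) and *Orc3* (19.9 TPM) of the origin complex lay within their range, and the loading inhibitor *Gmnn* had 15.6 TPM. Of the 23 genes of helicase and loading factors, all had reads and 12 exceeded the protein-coding median. *Gins4*, a subunit of the active helicase, was the highest at 61.6 TPM, with 8.36 TPM for its partner *Gins1*, 7.90 TPM for *Gins2* and 13.1 TPM for *Gins3*. Opposite-strand exons covered 67.3% of *Gins2*.

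Around PCNA, 11 of 18 genes of the clamp, its loaders and its users exceeded the protein-coding median. *Rfc2*, a clamp loader subunit, had 87.4 TPM, *Pold4*, a small subunit of DNA polymerase delta, had 62.6 TPM, and *Pcna* ranked 2. The ratio of *Pcna* to *Rfc2* was 0.806 (95% CI, 0.767 to 0.847), but 1.01 by the longest transcript and 0.4105 by coding length. The polymerase gene *Pole* (1.05 TPM), the clamp unloader *Atad5* (1.81 TPM) and the histone chaperone *Chaf1a* (2.09 TPM) were the lowest. Opposite-strand exons covered 15.1% of *Rfc2* and 52.5% of *Chaf1a*. Same-strand exons of another gene covered 24.6% of *Pold4*, and 13.9% of its 150-base windows occurred identically in a transcript of another gene. In a list of 43 S phase genes, the median was 7.90 TPM and 17 genes lay above the protein-coding median. *Pcna* was at rank 2 of this list and *Mcm2* at rank 16. Its lowest genes were *Dscc1* (0.580 TPM), *Blm* (0.594 TPM) and *Wdr76* (0.749 TPM). All 97 genes of the S and G2/M lists had reads, against 55.9% of all listed protein-coding genes, and none of the 97 reached the level of *Ccnd2* or *Cdkn1a*.

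**Figure D3:**
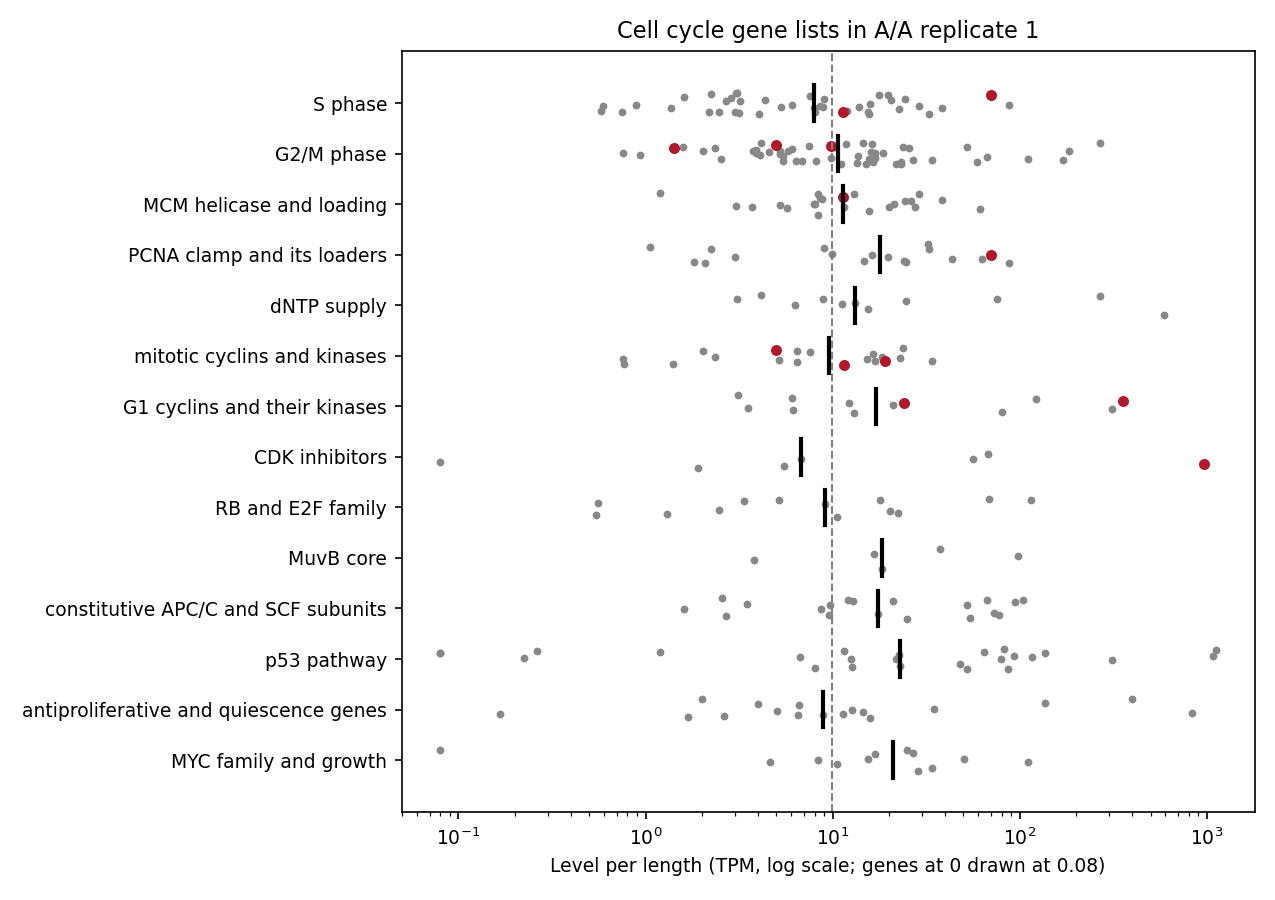
TPM (log axis) of every gene in 14 cell cycle lists in A/A replicate 1, with members in red, other genes in grey and list medians as black bars. Genes listed at 0 are drawn at 0.08, and the dashed line is the protein-coding median. The median of the S list (7.90 TPM) lies below that line and that of the G2/M list (10.6 TPM) just above it. The highest points belong to the p53, CDK inhibitor and antiproliferative lists.

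The D-type cyclins differed widely from each other. *Ccnd2* (ENSMUSG00000000184.12, chromosome 6, 127125162 to 127152193) was read at 1281 CPM (40230 reads, 95% CI of the CPM 1268 to 1293), which per length was 354 TPM, at percentile 97.1 of protein-coding genes with reads. *Ccnd3* (chromosome 17, 47505051 to 47599691) was read at 81.4 CPM (2555 reads, 95% CI of the CPM 78.3 to 84.6), which per length was 24.1 TPM. Per length *Ccnd2* was 14.7-fold higher than *Ccnd3* (95% CI, 14.1 to 15.3), or 9.60-fold by the longest transcript. *Ccnd1*, the third D-type cyclin, had 311 TPM, close to *Ccnd2*, which was 1.14-fold higher (95% CI, 1.12 to 1.16) and 2.32-fold higher by coding length. Opposite-strand exons covered 7.87% of *Ccnd2*, 4.11% of *Ccnd3*, 23.4% of *Ccnd1* and 19.7% of *Cdk4*, described next.

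Their kinase partners were led by *Cdk4* at 122 TPM, 19.9-fold above *Cdk6* at 6.12 TPM (95% CI, 18.6 to 21.4), or 4.98-fold by coding length. *Cdk4* also exceeded *Cdk1* 24.5-fold (95% CI, 21.8 to 27.6), or 15.8-fold by coding length. The E-type cyclins of the step into S phase were low, with 3.55 TPM for *Ccne1* and 6.07 TPM for *Ccne2*, and their kinase *Cdk2* had 12.2 TPM. *Cdk7*, *Ccnh* and *Mnat1*, the subunits of the CDK-activating kinase, had 20.96, 13.1 and 3.12 TPM, and the kinase chaperone *Cdc37* had 80.7 TPM. Within the 12 genes of this list, *Ccnd2*, *Ccnd1* and *Cdk4* were thus the highest per length, and *Ccne1*, *Ccne2*, *Cdk6* and *Mnat1* lay below the protein-coding median.

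*Cdkn1a* was the highest member. The gene (ENSMUSG00000023067.13, chromosome 17, 29090979 to 29100722) was read at 1315 CPM (41314 reads, 95% CI of the CPM 1303 to 1328). Per length it had 963 TPM (95% CI, 954 to 972), 96.7 times the protein-coding median, and 118 protein-coding genes were higher. It exceeded *Pcna*, whose product p21 binds, 13.7-fold (95% CI, 13.1 to 14.3), or 33.2-fold by coding length. It exceeded *Mki67* 680-fold (95% CI, 586 to 795), and more by transcript length (1162-fold) or coding length (4799-fold).

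The other CDK inhibitors were far below it. *Cdkn1b* (p27) and *Cdkn1c* (p57), of the same family as p21, had 6.80 and 1.91 TPM, and *Cdkn1a* was 142-fold higher than *Cdkn1b* (95% CI, 128 to 157), or 242-fold by the longest transcript. Of the INK4 family, which blocks CDK4 and CDK6, *Cdkn2d* had 68.0 TPM, *Cdkn2b* 56.0 TPM and *Cdkn2c* 5.52 TPM. *Cdkn2a*, the INK4 gene known from senescence, was listed at 0, which allows up to 0.0955 CPM by a floor of 3 reads. *Cdkn1a* held most of the TPM of the 7 inhibitors, since it had 963 of 1101 TPM.

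**Figure D4:**
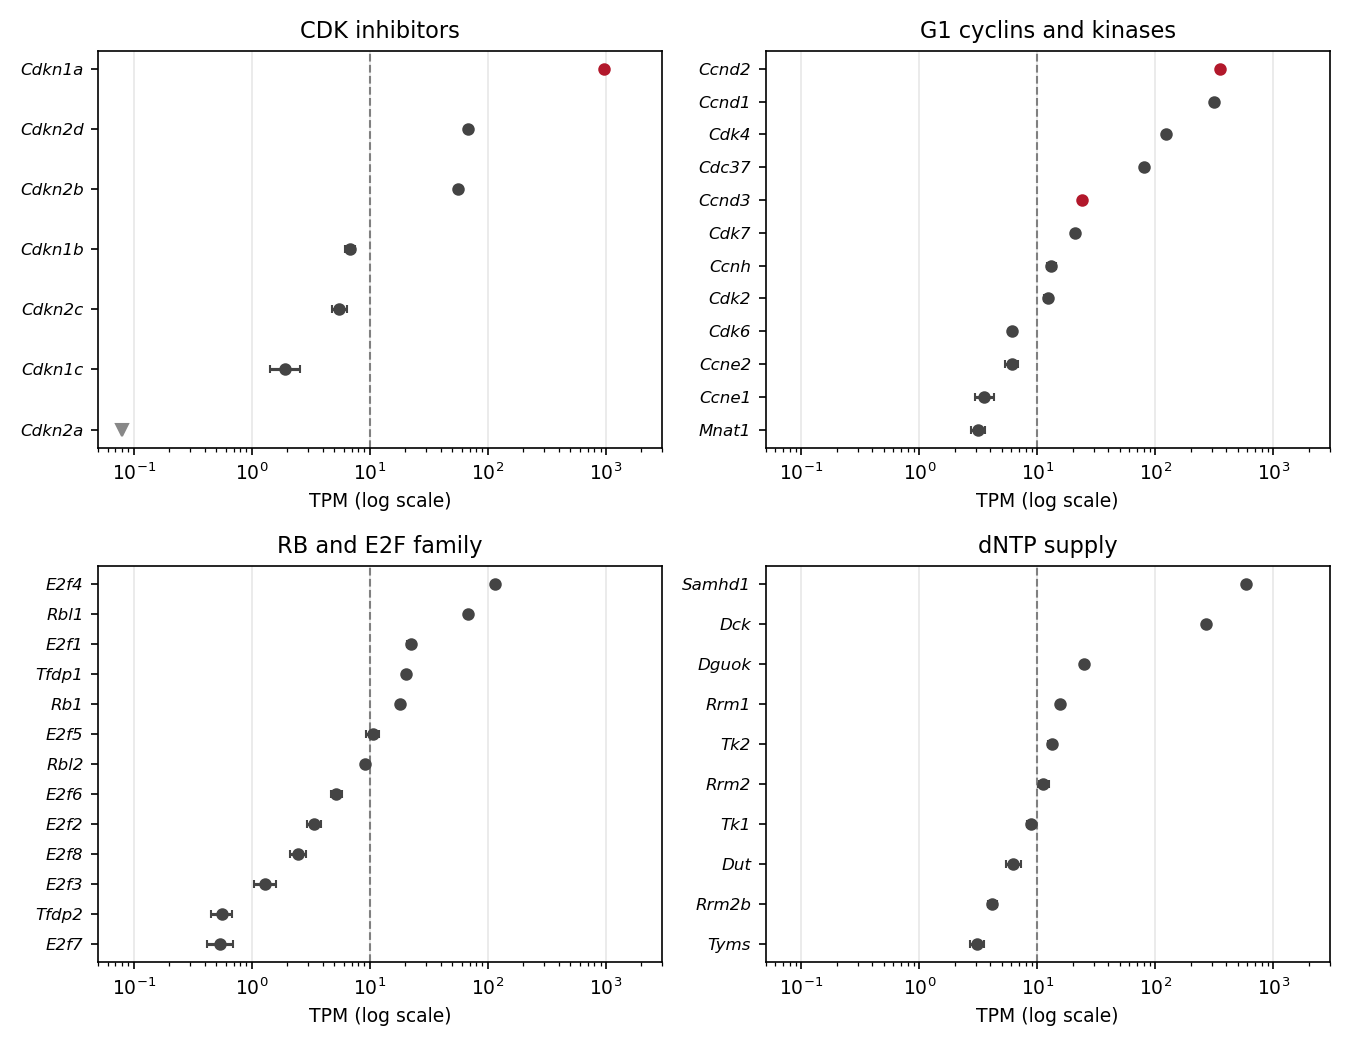
TPM (log axis) of the CDK inhibitors, the G1 cyclins and kinases, the RB and E2F family and 10 genes of dNTP supply in A/A replicate 1, with members in red and Wilson 95% intervals. The dashed line is the protein-coding median and the triangle marks *Cdkn2a*, listed at 0. In each panel 1 or 2 genes stand well apart from the rest: *Cdkn1a*, *Ccnd2* with *Ccnd1*, *E2f4* with *Rbl1*, and *Samhd1* with *Dck*.

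Other genes of the p53 pathway were also read, as *Cdkn1a* is a p53 target. Of 25 genes, 23 had reads and 18 exceeded the protein-coding median, with a list median of 22.8 TPM. The protein-coding median was exceeded by 50% of protein-coding genes with reads and by 27.96% of all listed ones. *Gadd45b*, a stress and NF-κB target, had 1118 TPM, and *Pmaip1*, which encodes the death protein NOXA and also responds to IFN, had 1078 TPM. These were the only 2 of the 249 cell cycle genes examined that were higher than *Cdkn1a*. *Bax* had 310 TPM, *Btg2* 136 TPM, *Sesn2* 116 TPM, *Ccng1* 93.6 TPM, *Mdm2* 78.9 TPM and *Trp53* itself 82.2 TPM. By contrast, the p53 targets *Zmat3* and *Plk3* had 0.225 and 0.262 TPM, and *Eda2r* and *Tnfrsf10b* were listed at 0.

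The RB and E2F family, which links G1 to S phase, was led per length by *E2f4* and *Rbl1*, both of which act in repression. *E2f4*, the E2F of resting cells, had 114 TPM and was 5.14-fold higher than *E2f1* (95% CI, 4.77 to 5.55), an activator with 22.2 TPM. The other activators *E2f2* and *E2f3* had 3.36 and 1.30 TPM, and the late repressors *E2f8* and *E2f7* had 2.48 and 0.542 TPM. *E2f5* and *E2f6* had 10.6 and 5.19 TPM. Of the pocket proteins, *Rbl1* (p107) had 68.5 TPM, 3.83-fold above *Rb1* at 17.9 TPM (95% CI, 3.61 to 4.08), and *Rbl2* (p130) had 9.13 TPM. Of the dimerization partners, *Tfdp1* had 20.3 TPM and *Tfdp2* 0.555 TPM. The MuvB core, which joins E2F4 and p107 or p130 in the DREAM complex, was expressed throughout, with 98.3 TPM for *Lin37*, 37.4 TPM for *Rbbp4*, 18.3 TPM for *Lin52*, 16.6 TPM for *Lin54* and 3.78 TPM for *Lin9*.

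DNA synthesis also needs deoxynucleotides (dNTPs). *Samhd1*, which encodes an IFN-inducible dNTP-degrading enzyme of non-dividing myeloid cells, had 588 TPM. It was 52.2-fold higher than *Rrm2* (95% CI, 47.1 to 57.9), the S phase subunit of ribonucleotide reductase, at 11.3 TPM, and 102-fold higher by coding length. *Rrm1* had 15.5 TPM and *Rrm2b*, the p53-linked subunit used outside S phase, had 4.16 TPM. The S phase enzymes *Tyms*, *Dut* and *Tk1* had 3.09, 6.25 and 8.87 TPM. The salvage kinase *Dck* had 267 TPM, and *Dguok* and *Tk2* had 24.7 and 13.2 TPM.

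The sorted cells carried the markers of their label. All 16 pDC markers had reads, from 17.9 TPM for *Bcl11a* to 6001 TPM for *Ly6d*, with *Siglech* at 287 and *Bst2* at 4774 TPM. They summed to 15772 CPM, led by *Irf7* (3352 CPM) and *Irf8* (2967 CPM). The paper counts *Irf7* among the IFN-related genes that were higher in A/A pDCs, so this sum is not a measure of cell identity alone. Markers of other cell types were mixed. Of the T and NK cell markers, 4 of 11 had reads (387 CPM in sum), led by *Cd8a* (237 TPM) and *Cd8b1* (61.5 TPM). The paper cites subsets of murine pDCs told apart by CD8α and CD8β, and it isolated CD8α+ pDCs from spleens. *Cd4* (12.55 TPM, 611 reads) and the T cell receptor gene *Trac* (1.42 TPM, 16 reads) also had reads. *Cd3e*, *Cd3d*, *Cd3g* and *Bcl11b* were at 0. Of the B and plasma cell markers, 5 of 9 had reads (39.6 CPM), led by *Sdc1* (29.2 CPM, 19.9 TPM). *Pax5*, *Fcer2a*, *Jchain* and *Mzb1* were at 0. Of the erythroid markers, 4 of 8 had reads (49.2 CPM), led by *Tfrc* (45.4 CPM, 19.1 TPM). The globin genes *Hba-a1* (9.08 TPM, 89 reads) and *Hba-a2* (3.10 TPM, 25 reads) had reads, and *Klf1* and both *Hbb* genes were at 0. Of the neutrophil markers, 4 of 8 had reads (35.6 CPM), led by *S100a8* (55.01 TPM) and *S100a9* (47.9 TPM), with *Mpo* and *Elane* at 0. All 9 macrophage and monocyte markers had reads (466 CPM), led by *Lyz2* (410 TPM), with *C1qb* at 62.3 and *Csf1r* at 22.1 TPM. Of the conventional DC markers, 10 of 11 had reads (5788 CPM), led by *Ccr7* (4851 TPM), *Ccl22* (1507 TPM) and *Fscn1* (370 TPM), which mature DCs also express. *Clec9a* had 58.4 TPM, *Flt3* 57.0 TPM and *Zbtb46* 32.3 TPM. *Cd24a* had 4.01 TPM, *Batf3* 2.49 TPM, *Clec10a* 2.11 TPM and *Xcr1* 1.00 TPM, and *Cd209a* was at 0. The part of such cells in the S and G2/M levels was not tested. In bulk RNA, few cells with much of a transcript and many cells with little of it cannot be told apart.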

How the data were processed

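Splenic pDCs were sorted and stimulated with R848, and mRNA libraries were prepared and sequenced as paired-end reads. The submitters' processing notes name HISAT2, StringTie, mm8 and mm10 without roles. The strand setting and annotation are not given in the sources used here, and the paper names DESeq2 for comparisons of genotypes. The deposited values are a signal per gene, that is, each gene's read count scaled by a single library-wide factor, with no length correction. The unit was inferred from the values: 100% of those above 0 were whole multiples of 1.19 within 0.001 reads. The coordinates are those of GRCm38.

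Reads were recovered by dividing by that step (31408298 reads), which was tested on 3 simulated libraries of 52550 genes with 100% recovery. Gene identifiers matched GENCODE M21 for 99.7%. CPM used all reads. TPM used merged exon lengths, and 147 genes without a length were left out of it. Percentiles were taken among genes with reads. Ratios carry exact binomial 95% intervals. Promoters are from RefSeq (GRCm38.p6). Tools were Python 3.11.15, numpy 2.4.6, scipy 1.17.1, pandas 2.3.3 and matplotlib 3.10.9.

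Genes named are the members, all genes of the smaller families (a few list genes are not reported here), and the highest and lowest up to 3 of each longer list. Other genes named, such as those of the p53 pathway between these ends were chosen after their values were seen, and so were the ratios outside 7 planned pairs. The members and lists were chosen with earlier results of these data known. Alternatives were other denominators, lengths, percentile sets and a pseudocount of 0.1 in place of 1 on log2 CPM. No test between genotypes was run, since 1 library was analysed.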

Additional observations from a re-analysis of the deposited data

How the results depend on the processing

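No paired analysis was possible because values of a single library were analysed, and for the same reason no replicate could be left out. Without the 10 highest genes in the denominator, the median CPM of the members was 35.6 in place of 32.1. The median percentile was 61.6 among genes with at least 10 reads and 58.4 among protein-coding genes, in place of 68.6. The first falls by construction, since lower genes are left out. The second leaves out genes that are not protein-coding. It fell for 10 of 10 members, so the genes left out lay below each member more often than protein-coding genes did. The median TPM of the members was 19.5 by the longest transcript and 17.9 by coding length, in place of 15.2. By the longest transcript, the S phase list had a median of 9.11 TPM in place of 7.90 and the G2/M list 12.6 in place of 10.6; by coding length the G2/M list had 8.29. For the 7 planned pairs, the ratio per length changed in size but not in direction. For *Ccnd3* over *Ccnd2* it was 0.104 by transcript and 0.0629 by coding length (0.0681 by merged exons). For *Cdkn1a* over *Cdkn1b* it was 242 by transcript (142). For *Cdkn1a* over *Pcna* it was 14.8 and 33.2 (13.7). For *Mcm2* over *Pcna* it was 0.204 and 0.135 (0.162). For *Mki67* over *Top2a* it was 0.0841 and 0.0780 (0.145). For *Ccnb1* over *Ccna2* it was 0.749 by transcript (0.609). For *Cdk1* over *Cdk4* it was 0.0291 and 0.0633 (0.0409). These follow from the lengths alone. The order of neighbors changed for 3 pairs: *Pcna* over *Ccnd3* was 0.894 and *Top2a* over *Cdk1* 0.694 by coding length, and *Ccnb1* over *Mcm2* was 0.862 by transcript. *Pcna* over *Rfc2* also turned, from 0.806 to 1.01 by transcript. For single members, the level per length moved beyond the counting interval in 9 of 10 by transcript and 10 of 10 by coding length. Depth limited *Mki67*, with 172 reads, the most.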

Other observations

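The antiproliferative and quiescence list held 2 further genes above *Ccnd2* per length. *Btg1*, an antiproliferative gene of resting lymphocytes, had 828 TPM, and *Mxd1*, which encodes a MAX partner that opposes MYC, had 398 TPM. *Tob1*, of the same family as *Btg1*, had 5.07 TPM, and the lowest genes were *Foxo4* (0.166 TPM), *Cdc14a* (1.68 TPM) and *Mxd4* (2.01 TPM). Of its 17 genes, all with reads, 8 exceeded the protein-coding median, and the list median was 8.90 TPM. By construction, 50% of protein-coding genes with reads exceed the protein-coding median, and 27.96% of all listed protein-coding genes do. *Myc* had 8.35 TPM, and *Mxd1* was 47.7-fold higher (95% CI, 42.3 to 53.9), or 248-fold by coding length. *Mycl*, the family member known from dendritic cells, had 34.0 TPM and *Mycn* was listed at 0. Among 12 genes of the MYC family and growth, 9 exceeded the protein-coding median, and the list median was 20.9 TPM. *Npm1* (111 TPM) and *Odc1* (50.03 TPM) were the highest of these, and *Myb* (4.635 TPM) was the lowest with reads.

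The ubiquitin ligases of the cycle differed by subunit. Of 19 genes of the APC/C and SCF complexes, 12 exceeded the protein-coding median, led by *Anapc5* (104 TPM), *Rbx1* (94.6 TPM) and *Skp1a* (77.2 TPM). *Fzr1*, the APC/C activator of G1 and resting cells, had 73.0 TPM and was 4.34-fold higher than *Cdc20*, the mitotic activator, at 16.8 TPM (95% CI, 3.91 to 4.84), or 10.6-fold by coding length. *Skp2*, the SCF subunit that targets p27, was the lowest of the 19 at 1.61 TPM, followed by *Btrc* (2.55 TPM) and *Fbxw7* (2.68 TPM).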
